A study of Mus musculus with 4 samples.

Results

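The 40 genes described here encode the folding and quality control machinery of the endoplasmic reticulum (ER): chaperones, disulfide and prolyl isomerases, the translocon, the degradation of misfolded proteins and the sensors of ER stress. They were chosen as a list of symbols. For each gene the probe set with the highest mean intensity over the 4 arrays was used, among probe sets annotated to that symbol alone. All 40 were on the array and above the filter on dim probe sets, among 13565 genes tested. The RNA was total RNA labelled as from mouse mesangial cells, the contractile cells that support the capillary loops of the kidney glomerulus. Measured on one-colour oligonucleotide arrays, it came from 2 samples treated with TGF-beta1, the matrix-inducing cytokine transforming growth factor beta 1, and from 2 samples kept in low glucose. No genotype, strain, dose, time or culture origin is given in the labels, nor the glucose level of the TGF-beta1 cells, so TGF-beta1 and glucose cannot be told apart as the source of a difference. Whether the replicates were separate cultures is not stated, and the p-values cover the spread between these arrays alone, which could be technical.

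Secreted and membrane proteins enter the ER through the translocon, where chaperones and disulfide isomerases fold them, and those that fail are returned to the cytosol for degradation. When unfolded protein accumulates, the membrane sensors IRE1 (gene Ern1), PERK (Eif2ak3) and ATF6 start the unfolded protein response. IRE1 splices the Xbp1 transcript, ATF6 is cleaved into a transcription factor, and PERK slows translation and raises the transcription factor ATF4. Hspa5, which encodes the chaperone BiP, and Herpud1 are widely used readouts of that response. Matrix-producing cells such as mesangial cells depend on this machinery to fold collagens and other glycoproteins.

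Values are given as normalised log2 intensity, and differences as TGF-beta1 minus low glucose on that scale, which understates the change of dim genes. The 4 arrays fell into 2 array pairs, each with 1 array of either group: TGF-beta1 replicate 2 with low glucose replicate 1 (array pair 1), and TGF-beta1 replicate 1 with low glucose replicate 2 (array pair 2). The pairs were made from hybridisation spike-ins, control transcripts that hold no RNA of the cells. The fit took the array pair as a block. A gene "rose" or "fell" where its adjusted p with limma was under 0.05 in that fit, values after ± are its standard errors with n = 2 arrays per group, and intervals are its 95% intervals. The number of arrays limits the precision. In bulk RNA, fewer cells of a type and less RNA per cell cannot be told apart.

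Deposited array medians were 80.32 and 99.62 in TGF-beta1 and 96.75 and 78.28 in low glucose. The 3' to 5' intensity ratio of control probe sets is a sign of RNA or labelling quality. For Tfrc it was 2.78 and 4.30 in TGF-beta1 and 3.92 and 2.72 in low glucose, higher in array pair 1. For Actb it was 1.32 and 1.18 in TGF-beta1 and 1.18 and 1.51 in low glucose, higher in array pair 2. Pcx, at 2.4 and 1.94 in TGF-beta1 and 2.3 and 2.37 in low glucose, was also higher in array pair 2. Gapdh varied little and was slightly higher in array pair 1. The controls differed in direction, with the widest gap between the pairs for Tfrc. Whether either array pair was poorer in quality was not tested. Of the mesangial and pericyte markers with a probe set, 8 of 10 were above the filter, including Pdgfrb and Itga8, while Gata3 and Thy1 were below it. The epithelial and tubule markers had 7 of 8 above the filter, Cdh16, Pax8 and Lrp2 among them. The summed intensity of the epithelial list was 7366 and 7108 in TGF-beta1 and 6477 and 6160 in low glucose, with 3 markers that rose and 2 that fell. Krt18, the brightest with a mean intensity of 3316, rose by 0.54, Krt8 by 0.40 and Cldn4 by 1.08. Cdh16 (mean intensity 1778) fell by 0.31 and Lrp2 (425.6) by 0.29, while Pax8 (701.6), at -0.14, and Epcam, at 0.06, did not pass. The mesangial list summed to 6048 and 7153 in TGF-beta1 and 5993 and 5016 in low glucose, with 2 that rose and 1 that fell. Most of that sum was Vim, with a mean intensity of 5247, and every other mesangial marker averaged 139.5 or less. Pdgfrb averaged 98.1 and Itga8 68.27. The tubule markers Cdh16, Pax8 and Lrp2 were thus each brighter than every mesangial marker but Vim. Whether the cells were mesangial, as labelled, was not tested. The part of either list in the differences below was not tested. Of the other markers, 3 of 4 podocyte, 1 of 5 endothelial and 4 of 5 leukocyte genes were above the filter. In the podocyte list Podxl rose by 0.23 and Synpo fell by 0.58. In the leukocyte list Csf1r, a macrophage receptor, fell by 0.38, while Cd14 (-0.02), Adgre1 (0.06) and Cd68 (0.14) did not pass.

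Most of the ER folding genes did not pass the test, and those that rose were a co-chaperone, a degradation factor and a pair of stress sensors. Dnajb9 (ERdj4, a DnaJ co-chaperone of BiP) was higher in TGF-beta1 by 0.50 ± 0.071, which is 1.42-fold. Herpud1, a membrane scaffold of ER-associated degradation, was higher by 0.34 ± 0.082 (1.26-fold), Eif2ak3 by 0.31 ± 0.079 (1.24-fold) and Atf6 by 0.25 ± 0.068 (1.19-fold). Edem2, which trims mannose from misfolded glycoproteins, fell by 0.21 ± 0.077. In all, 4 of the 40 genes rose, 1 fell and 35 did not pass. The 5 called genes are 12.5% of the 40, below the 18.5% called over all genes tested, where 7.93% rose and 10.6% fell. The median difference was 0.04 (0.06 within array pair 1 and 0.04 within array pair 2), beside a median of -0.00034 over all genes tested. These calls rest on the block and its prior. The block leaves 1 residual degree of freedom, and each gene takes the spread of genes of its brightness. Without the block limma called 0 of the 40 genes and 0 of all genes. At an unadjusted p under 0.05 that fit gave 0 of the 40 and 269 (1.98%) of all genes. With the block and the prior of that fit (2.79 degrees of freedom) limma again called 0, and 5 of the 40 had an unadjusted p under 0.05, against 16.5% of all genes.

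**Figure D1:**
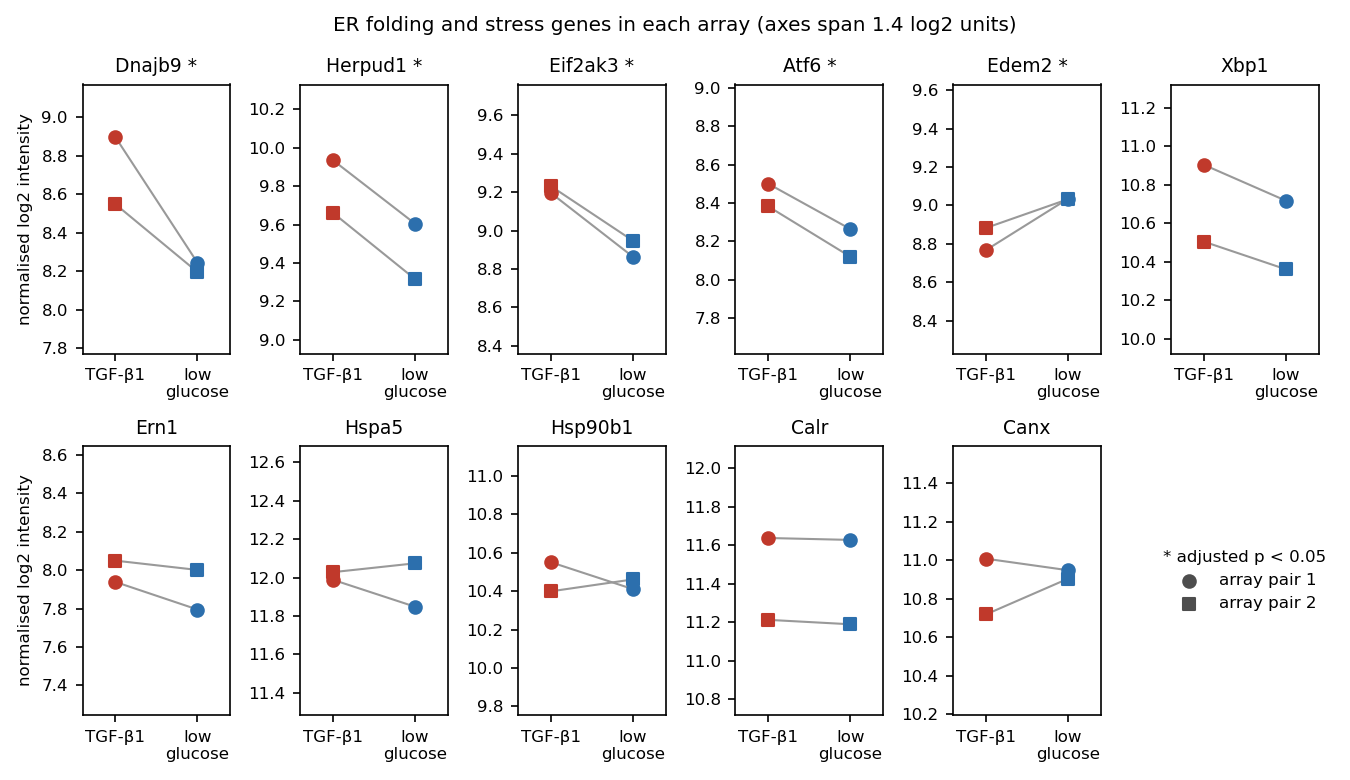
Normalised log2 intensity (vertical axis, each panel spanning the same range) of 11 genes in the TGF-beta1 arrays (red, left) and the low glucose arrays (blue, right). Circles are array pair 1 and squares array pair 2, lines join the arrays of a pair, and an asterisk marks genes past the threshold. Both lines slope the same way for the 5 marked genes and for the unmarked Xbp1, Ern1 and Calr. The lines of Hspa5, Hsp90b1 and Canx slope in opposite ways.

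The sensors came first in the order of the pathway, and all 4 genes of this group lay above 0 within both array pairs. Over all genes tested, 68.3% had the same sign within both pairs, in either direction. Eif2ak3, the kinase that phosphorylates eIF2alpha, was at 9.23 and 9.20 in TGF-beta1 and at 8.86 and 8.95 in low glucose. Both TGF-beta1 arrays were above both low glucose arrays, with differences of 0.33 and 0.28 within array pairs 1 and 2 and an adjusted p of 0.0012 with limma. Another Eif2ak3 probe set above the filter was at 0.12. Atf6 was at 8.38 and 8.50 in TGF-beta1 and at 8.26 and 8.12 in low glucose. Here too the groups did not overlap, the within-pair differences were 0.24 and 0.26, and the adjusted p was 0.0030 with limma. The other probe sets of Atf6 differed by 0.27 and 0.20, so all 3 lay close together.

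Ern1, the kinase and endonuclease of the IRE1 arm, did not pass. Its levels were 8.05 and 7.94 in TGF-beta1 and 7.80 and 8.001 in low glucose, a difference of 0.10 ± 0.064 (interval -0.03 to 0.22). The groups overlapped, and its other probe sets above the filter ranged from -0.11 to 0.12. Xbp1, whose spliced transcript encodes the transcription factor of that arm, was at 10.51 and 10.91 in TGF-beta1 and at 10.72 and 10.36 in low glucose. The arrays of array pair 1 were above those of array pair 2 in both groups, by more than TGF-beta1 was above low glucose within either pair. The difference of 0.17 ± 0.077 (0.19 and 0.14 within the pairs) had an adjusted p of 0.12 with limma. The other probe sets of Xbp1 differed by 0.26, 0.19 and 0.09. Where probe sets whose names mark a possible match to several transcripts were left out, that with 0.26 took its place and passed (adjusted p = 0.011 with limma). The deposited value of a probe set does not separate spliced from unspliced Xbp1.

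Among the 7 chaperones and co-chaperones, Dnajb9 was the gene that rose, and 6 did not pass (14.3% called, against 18.5% of all genes). Dnajb9 was at 8.55 and 8.90 in TGF-beta1 and at 8.24 and 8.20 in low glucose. The lower TGF-beta1 array was above both low glucose arrays. The within-pair differences were 0.65 and 0.35, and the adjusted p was 6.2e-11 with limma, the lowest of the 40. Dnajb9 had no other probe set here, and its difference was 0.33 when TGF-beta1 replicate 2 was left out.

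Hspa5 was at 12.03 and 11.99 in TGF-beta1 and at 11.85 and 12.07 in low glucose. Both TGF-beta1 values lay between those of low glucose. The difference was 0.05 ± 0.056, with an interval of -0.06 to 0.16, and it was 0.14 within array pair 1 and -0.05 within array pair 2. The wider interval of the fit without the block ran from -0.26 to 0.35. Both other Hspa5 probe sets were close to this value, at 0.07 and 0.06. Hsp90b1, the ER member of the HSP90 family (GRP94), was at 10.40 and 10.55 in TGF-beta1 and at 10.41 and 10.46 in low glucose. Its difference of 0.04 ± 0.078 also had opposite signs within the pairs (0.14 and -0.06), and its interval was -0.12 to 0.19. For both chaperones a rise of 0.50, the estimate for Dnajb9, lies outside the interval of either fit, where the upper bound without the block was 0.38 for Hsp90b1. Without the block the interval of Dnajb9 itself ran from -0.01 to 1.02, which overlaps those of both chaperones. The genes were not tested against each other.

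The remaining chaperones ranged from -0.06 for Sdf2l1, a partner of BiP complexes, to 0.14 ± 0.082 for Hyou1, a nucleotide exchange factor of BiP. Dnajb11, another DnaJ co-chaperone, was at 10.04 and 10.05 in TGF-beta1 and at 10.00 and 10.01 in low glucose. Its groups did not overlap, although the difference was 0.04 and did not pass. Dnajc3, a DnaJ protein that inhibits PERK, differed by 0.03 ± 0.067 on the probe set described. Its 3 other probe sets above the filter were at -0.38, -0.22 and -0.12, so the Dnajc3 probe sets disagreed in direction.

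The lectin chaperones, which hold newly glycosylated proteins for folding, did not pass. Calr (calreticulin) was at 11.21 and 11.64 in TGF-beta1 and at 11.63 and 11.19 in low glucose. Each TGF-beta1 array differed from the low glucose array of its pair by 0.01 and 0.02, while the pairs differed by -0.43 (array pair 2 minus array pair 1). Canx (calnexin) was at 10.72 and 11.01 in TGF-beta1 and at 10.95 and 10.90 in low glucose, a difference of -0.06 ± 0.073 with opposite signs within the pairs. The 5 disulfide isomerases, which form and reshuffle disulfide bonds, ranged from -0.06 (Pdia6) to 0.10 (P4hb, which is also a subunit of the collagen prolyl hydroxylase). The prolyl isomerases Ppib (cyclophilin B, a helper of collagen folding) and Fkbp2 lay at 0.00076 and -0.08. Among Creld2, Manf and Nucb2, the first a disulfide isomerase-like protein and the second a secreted factor induced by ER stress, the highest difference was 0.08 for Manf. None of these 12 genes passed, and the groups of each overlapped. Over all genes tested 18.5% were called and in 20.9% the groups did not overlap, so with 12 genes nothing particular is read from these counts.

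**Figure D2:**
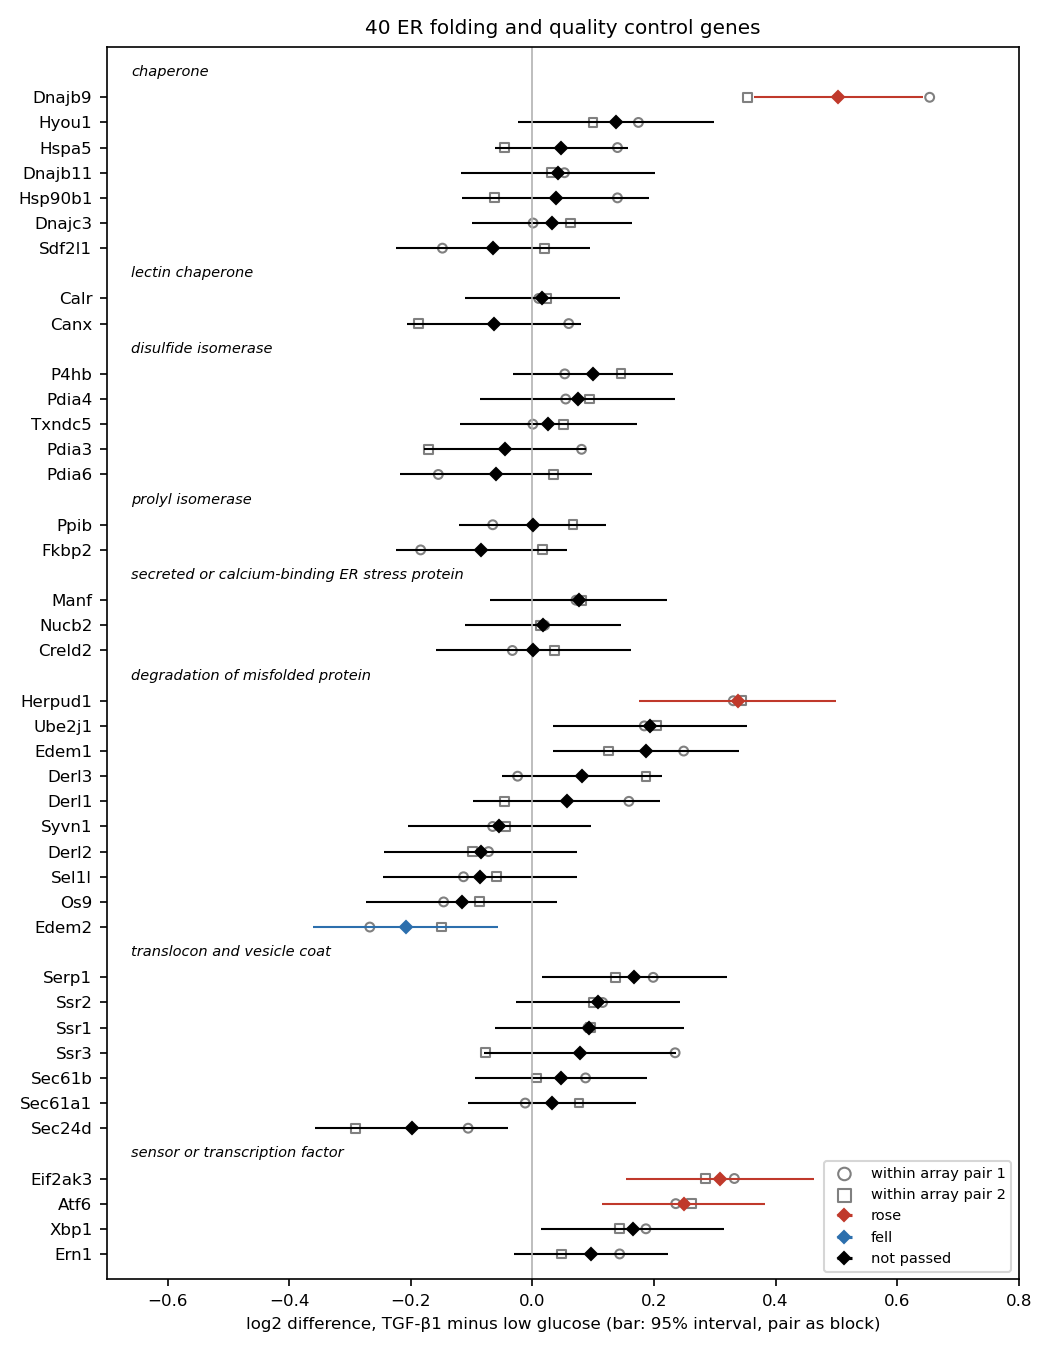
Log2 difference, TGF-beta1 minus low glucose (horizontal axis), of the 40 genes sorted by role. Diamonds with bars are the estimate and its 95% interval with the array pair as a block, open circles and squares the differences within array pairs 1 and 2. Dnajb9 at 0.50 stands farthest from 0, and the interval of 39 of the 40 genes lies within 0.5 of 0.

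Promoters of ER stress genes are known for the ER stress response element (ERSE), bound by NF-Y at its CCAAT end and by ATF6 at its CCACG end. The RefSeq windows of GRCm38.p6, which run from 250 bases before to 50 bases after a gene's start, covered 34 of the 40 genes. Each was searched on both strands for ERSE (CCAAT, 9 free bases, CCACG), ERSE-II (ATTGG, 1 free base, CCACG) and the cores TGACGTGG and TGACGTGA of the unfolded protein response element. No matches overlapped each other. ERSE was found in 9 of the 34 genes (26.5%), against 0.137% of the 27025 genes in the table, and ERSE-II in 2 of the 34, against 0.0444%. A match describes these letters and shows no binding. The matches are printed to show which of the 40 genes hold the element and how its free bases vary. Capitals mark the fixed bases of the motif and lower case the free ones, read 5′ to 3′ on the strand named.
Hspa5, ERSE, chr2:34772025-34772043, plus strand: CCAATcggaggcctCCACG
Hsp90b1, first ERSE, chr10:86705638-86705656, minus strand: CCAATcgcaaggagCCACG
Hsp90b1, other ERSE, chr10:86705533-86705551, plus strand: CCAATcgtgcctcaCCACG
Calr, ERSE, chr8:84847075-84847093, plus strand: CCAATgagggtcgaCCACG
Canx, ERSE, chr11:50325800-50325818, minus strand: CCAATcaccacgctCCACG
Pdia6, ERSE, chr12:17266491-17266509, plus strand: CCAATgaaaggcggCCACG
Dnajc3, ERSE, chr14:118937827-118937845, plus strand: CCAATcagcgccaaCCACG
Creld2, ERSE, chr15:88819520-88819538, minus strand: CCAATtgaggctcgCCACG
Derl3, ERSE, chr10:75893242-75893260, minus strand: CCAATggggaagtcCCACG
Syvn1, ERSE, chr19:6046532-6046550, plus strand: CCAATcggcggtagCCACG
Herpud1, ERSE-II, chr8:94386377-94386387, plus strand: ATTGGgCCACG
Dnajb11, ERSE-II, chr16:22857852-22857862, plus strand: ATTGGcCCACG

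None of the 9 genes with the full ERSE passed. On the probe sets described, their differences ranged from -0.06 (Canx) to 0.08 (Derl3), with a median of 0.02. Other probe sets above the filter lay below that range for Dnajc3 (-0.38, -0.22 and -0.12), Syvn1 (-0.15) and Canx (-0.13). Those of Hspa5, Hsp90b1, Calr and Pdia6 lay within it, as did another of Canx. Over all genes tested 18.5% were called and 7.93% rose, and with 9 genes nothing particular to ERSE is read from a count of 0. The 20 genes with a window and none of the motifs had 2 that rose, 1 that fell and a median of 0.06. The groups overlapped for each of the 9 genes with ERSE, while 20.9% of all genes had groups that did not overlap. The highest upper bound of the intervals of these 9 genes was 0.21 with the block. In the fit without the block their upper bounds were higher, up to 0.78 for Syvn1. Of the genes with ERSE-II, Herpud1 rose and Dnajb11 was at 0.04. The core TGACGTGG was found in Txndc5, Ube2j1 and Sec24d (8.82% of the 34, against 0.714% of the genes in the table) and TGACGTGA in Hspa5 (2.94%, against 0.507%). Dnajb9, Eif2ak3 and Edem2 held none of the 4 motifs in this window, and Atf6 had no window in the table. The difference between genes with and without a motif was not tested. The 250 bases before the start are printed for Hspa5, which holds ERSE and did not pass, and for Herpud1 and Dnajb9, which rose, with the fixed bases of matches in capitals.
Hspa5, chr2:34771840-34772089, plus strand: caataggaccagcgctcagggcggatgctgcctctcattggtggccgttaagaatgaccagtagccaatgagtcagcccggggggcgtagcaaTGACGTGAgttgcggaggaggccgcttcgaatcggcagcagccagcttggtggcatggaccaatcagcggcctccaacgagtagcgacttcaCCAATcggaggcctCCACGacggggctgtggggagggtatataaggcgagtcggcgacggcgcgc
Herpud1, chr8:94386179-94386428, plus strand: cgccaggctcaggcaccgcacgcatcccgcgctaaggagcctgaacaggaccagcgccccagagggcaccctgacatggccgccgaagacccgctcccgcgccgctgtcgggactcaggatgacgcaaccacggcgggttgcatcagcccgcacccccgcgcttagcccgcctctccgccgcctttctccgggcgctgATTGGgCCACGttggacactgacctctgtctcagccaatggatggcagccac
Dnajb9, chr12:44210069-44210318, minus strand: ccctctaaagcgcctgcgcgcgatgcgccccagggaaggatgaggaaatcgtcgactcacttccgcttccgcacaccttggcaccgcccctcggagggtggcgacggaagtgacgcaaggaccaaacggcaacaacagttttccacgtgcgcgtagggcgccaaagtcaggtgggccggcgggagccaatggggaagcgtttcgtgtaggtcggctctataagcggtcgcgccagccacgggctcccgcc

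Of the 10 genes of ER-associated degradation 1 rose, 1 fell and 8 missed the threshold, a share called of 20%, near the 18.5% of all genes. Their median was 0.00097. Herpud1 was at 9.66 and 9.93 in TGF-beta1 and at 9.60 and 9.32 in low glucose. The groups did not overlap, although the lower TGF-beta1 array and the higher low glucose array were close. Within the array pairs the differences were 0.33 and 0.34, the adjusted p was 0.00060 with limma, and the other Herpud1 probe set was at 0.40. Without low glucose replicate 2 the difference was 0.19 and without TGF-beta1 replicate 2 it was 0.20. A fit with 3 arrays has no block, and its groups then hold the array pairs in unequal shares.

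Edem2 was at 8.88 and 8.77 in TGF-beta1 and at 9.03 and 9.03 in low glucose. Both TGF-beta1 arrays were below both low glucose arrays, with -0.27 and -0.15 within the pairs and an adjusted p of 0.041 with limma. With no filter on dim probe sets it missed the threshold (adjusted p = 0.050 with limma). Edem1, a related mannose-trimming factor, lay in the other direction without passing, at 0.19 ± 0.078 (adjusted p = 0.077 with limma) and at 0.25 on its other probe set. Ube2j1, a membrane-anchored ubiquitin-conjugating enzyme, was at 0.19 ± 0.081 (adjusted p = 0.078). The core of the degradation complex lay slightly below 0 without passing, with Sel1l, an adaptor, at -0.09, Syvn1, its ubiquitin ligase (HRD1), at -0.05 and Os9, a lectin that recognises trimmed glycans, at -0.12. The derlins, which form part of the retrotranslocation channel, ranged from -0.09 (Derl2) to 0.08 (Derl3).

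The translocon genes and the vesicle coat gene Sec24d, 7 in all, held 0 that passed, against 18.5% of all genes. Sec61a1 and Sec61b, subunits of the channel, were at 0.03 and 0.05, and the translocon-associated Ssr1, Ssr2 and Ssr3 at 0.09, 0.11 and 0.08. Serp1, a translocon-associated protein induced by ER stress, was at 10.64 and 10.62 in TGF-beta1 and at 10.42 and 10.51 in low glucose. Its groups did not overlap, but the difference of 0.17 ± 0.078 had an adjusted p of 0.12 with limma. Sec24d, a cargo adaptor of COPII vesicles that collagen export depends on, was at -0.20 ± 0.081 (adjusted p = 0.069 with limma), with -0.11 and -0.29 in array pairs 1 and 2. It passed where arrays were centred on their medians (adjusted p = 0.042).

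**Figure D3:**
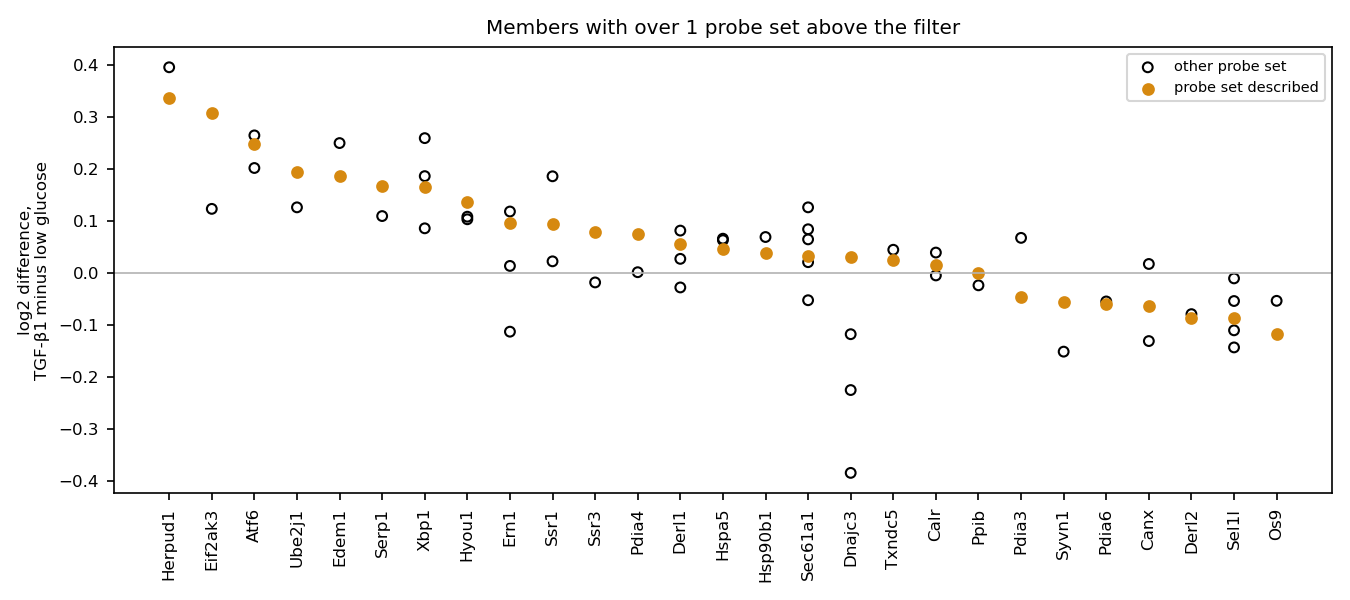
Log2 difference, TGF-beta1 minus low glucose (vertical axis), of each probe set above the filter for the 27 genes with over 1 such probe set. Filled points are the probe sets described and open points the others. Of 48 other probe sets, 44 lay within 0.15 of the one described and 37 had its sign, and the widest gap was that of Dnajc3.

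Across the arrays, most of the 40 genes differed more between the array pairs than between the groups, as did most genes tested. The difference between pairs exceeded that between TGF-beta1 and low glucose in size for 33 of the 40 and for 10338 of the 13565 genes tested. Between the pairs, 28 of the 40 (70%) had an adjusted p under 0.05 with limma, against 66.6% of all genes. The median absolute difference of the 40 was 0.08 between groups and 0.23 between pairs, beside 0.09 and 0.24 over all genes. Nucb2, a calcium-binding protein, was at 7.91 and 7.04 in TGF-beta1 and at 7.02 and 7.90 in low glucose. It differed by 0.88 ± 0.066 between the pairs (array pair 2 minus array pair 1) and by 0.02 between the groups. Syvn1, at 8.54 and 9.14 in TGF-beta1 and at 9.21 and 8.59 in low glucose, differed by -0.61 ± 0.077 between the pairs. Of the genes that rose, Dnajb9 and Herpud1 differed between the pairs by -0.20 and -0.28, less than between the groups, and Eif2ak3 by 0.06.

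**Figure D4:**
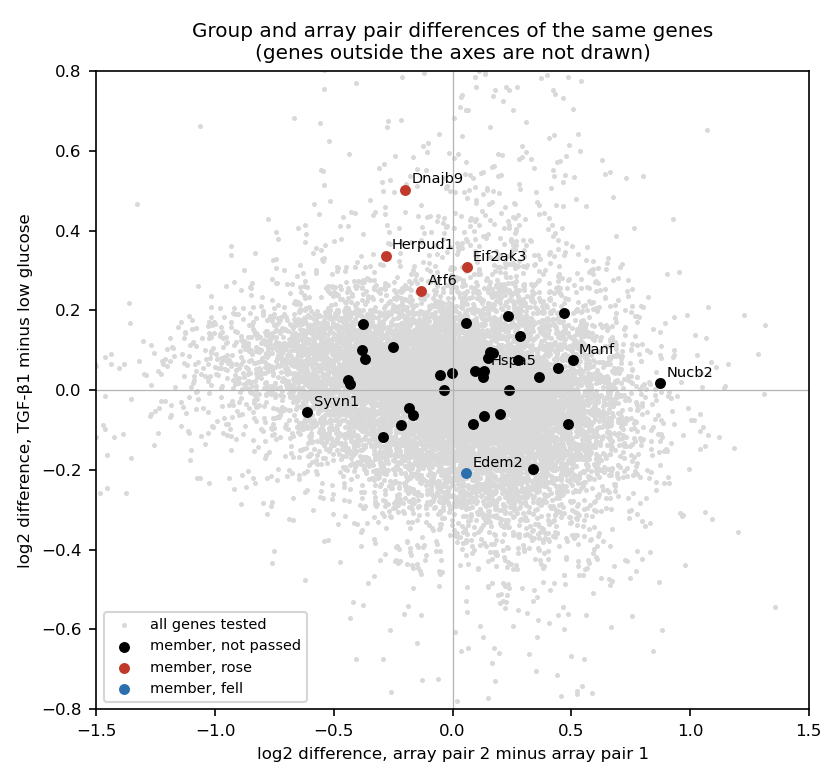
Log2 difference between the array pairs (horizontal axis, array pair 2 minus array pair 1) and between TGF-beta1 and low glucose (vertical axis) for the 40 genes and, in grey, all genes tested that lie inside the axes. The 40 genes spread farther sideways than upwards: Nucb2 lies at 0.88 between pairs and 0.02 between groups, and Dnajb9 at -0.20 and 0.50.

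In 27 of the 40 genes (67.5%) the difference had the same sign within both pairs, against 68.3% of all genes. Both TGF-beta1 arrays lay above both low glucose arrays in 6 genes (Dnajb9, Herpud1, Eif2ak3, Atf6, Serp1 and Dnajb11) and below them in Edem2. The genes above are 6 of the 40, against 9.79% of all genes, and the gene below is 1 of the 40, against 11.1%. The 7 genes together are 17.5%, near the 20.9% of all genes whose groups did not overlap. In 29 of the 40 the difference was above 0, against 6770 of the 13565 genes tested.

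Other genes of the secretory pathway were counted in 8 lists of ER proteins, ER stress transducers and related genes. The PERK arm and the cytosolic chaperones were counted in a list each. The 8 ER lists together held 170 tested genes, of which 6 rose and 14 fell (11.8% called, against 18.5% of all genes), and their median was -0.01. The ER calcium-binding proteins had 0 of 14 called and the COPII genes and KDEL receptors 1 of 27. The list of ER stress transducers, their proteases and related genes had 1 of 16. The COPII gene called was Kdelr1, the receptor that returns escaped ER chaperones, at -0.23 ± 0.077. In the transducer list it was Gtf2i, a related gene and no transducer or protease, at -0.26 ± 0.077. Among 21 oxidoreductases 1 rose and 3 fell: Txndc16 at -0.37 ± 0.064, Tmx2 at -0.27, Vkorc1 at -0.26 and, rising, Vkorc1l1 at 0.21. A list of 16 prolyl isomerases, collagen chaperones and other ER genes had 1 that rose, Plod2, a collagen lysyl hydroxylase, at 0.21. In it 3 fell, the prolyl isomerase Fkbp14 at -0.21 and, of the other ER genes, Dnajb14 at -0.30 and Lrpap1 at -0.23.

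In the N-glycosylation list 2 of 30 genes rose, Tusc3, an oligosaccharyltransferase subunit, at 0.26 and the cargo receptor Lman1 at 0.22, and 1 fell, Edem3 at -0.18. Of 18 genes for targeting and translocation 0 rose and 2 fell, Sec62 at -0.30 and Srp9, a subunit of the signal recognition particle, at -0.27. Of 29 other degradation genes 2 rose (Rad23b at 0.25 and Selenok at 0.22) and 3 fell (Fam8a1 at -0.23, Rnf5 at -0.22 and Ngly1 at -0.21). The shares called in these 3 lists were 10%, 11.1% and 17.2%, each below the 18.5% of all genes.

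The list of the PERK arm and the integrated stress response, the program downstream of eIF2alpha phosphorylation, stood at a median of 0.17. Of its 22 tested genes 10 rose and 0 fell, a share of 45.5% called, against 18.5% of all genes, where 7.93% rose. The list was chosen with earlier results of these data known. Fgf21, a stress-induced hormone, rose by 1.52 ± 0.064, Atf3 by 1.34 ± 0.082, Ddit4, an inhibitor of mTORC1, by 0.76 ± 0.081 and Chac1, which degrades glutathione, by 0.70 ± 0.080. Chac1 was at 10.69 and 10.62 in TGF-beta1 and at 9.93 and 9.98 in low glucose, with 0.69 and 0.72 within the pairs. Atf4, the transcription factor translated when PERK or a related kinase is active, rose by 0.36 ± 0.060, and Ddit3 (CHOP) by 0.34 ± 0.077. Other kinases than PERK feed into this program, and which was active was not measured. The cytosolic heat shock chaperones, a list chosen in the same way, had 9 of 29 that rose and 0 that fell. That is 31% called, against 18.5% of all genes, and their median was 0.13. The list also held the mitochondrial chaperones Hspd1 and Hspe1, which did not pass. Hspa1b rose by 0.55 ± 0.079 and Hspb1 by 0.52 ± 0.052, followed by Hsph1 at 0.35 and Hspa1a at 0.26, the paralogs Hspa1a and Hspa1b being similar enough to share signal. Differences between lists were not tested, and without the block limma called 0 of the 221 genes in the 10 lists, 8 of which had an unadjusted p under 0.05.

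**Figure D5:**
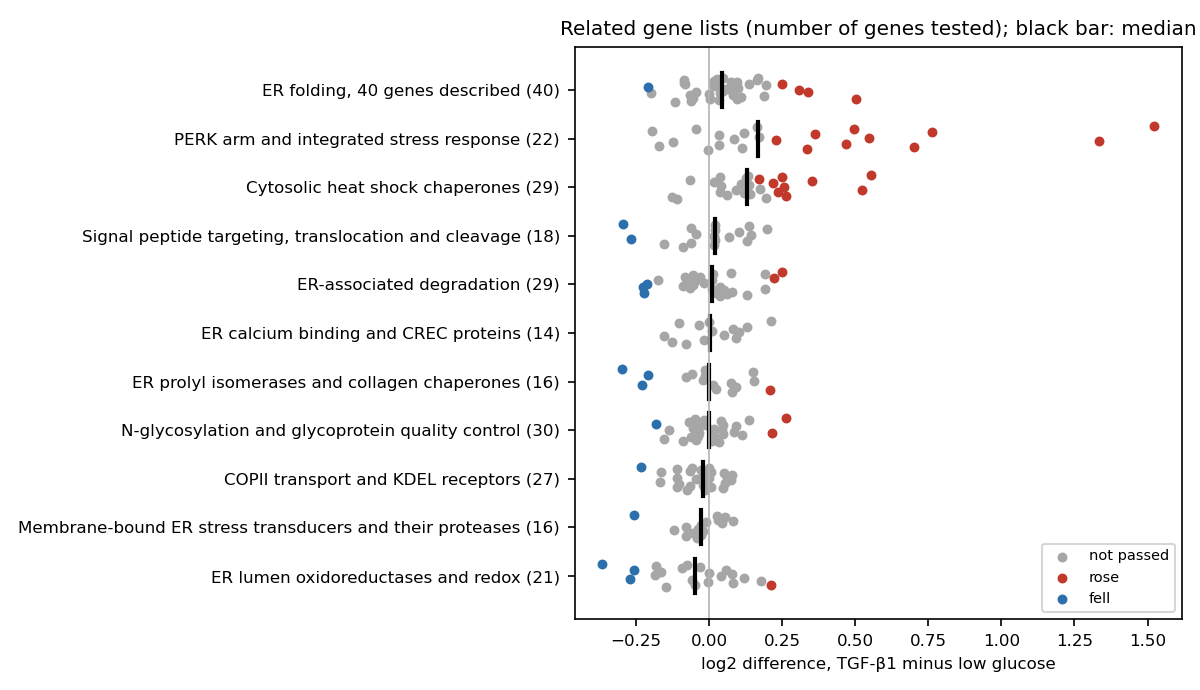
Log2 difference, TGF-beta1 minus low glucose (horizontal axis), of each tested gene in the 40 ER folding genes and in 10 related lists, with the number of genes tested in parentheses. Red points rose, blue points fell, grey points did not pass, and black bars are medians. The PERK arm list has its median at 0.17 and the cytosolic chaperones at 0.13, while the 40 ER folding genes have theirs at 0.04.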

How the data were processed

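Total RNA labelled as from mouse mesangial cells was measured on 4 arrays, grouped by their titles into 2 TGF-beta1 and 2 low glucose arrays. The authors deposited linear intensities, 1 per probe set and array. Their probe summary and array scaling are not stated there (not given in the sources used here). Replicates were numbered within groups, which pairs no arrays.

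Names came from the platform annotation: 34945 of 45037 probe sets other than controls had 1 symbol, 932 several and 9160 none here. All 40 members kept their symbol through the gene identifier. Intensities were turned into log2(intensity + 46.88), the 25th percentile of all values, and quantile normalised, since array medians differed by up to 0.227. Probe sets with a mean log2 below the 40th percentile were left out, and the brightest of each gene was tested (13565 genes). limma 3.58.1 (R 4.3.3) was fitted with an intensity trend and the array pair as a block, two-sided, with Benjamini-Hochberg adjustment over all genes and a threshold of 0.05. Array pairs came from 18 spike-in probe sets, where each low glucose array has 1 nearest array of the TGF-beta1 group. The fit was also run on simulated data with a common spread for all genes, which could not check the prior that the calls rest on. Figures used matplotlib 3.10.9 (Python 3.11.15).

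All members could be named. Values per array were given for members past the threshold, for Hspa5, Hsp90b1, Calr and Canx, for the sensors and for Xbp1. From each related list up to 4 genes past the threshold with the largest difference were named, by their difference. Members and lists were chosen with earlier results of these data known. Genes named outside that rule (array values of Serp1, Dnajb11, Nucb2, Syvn1 and Chac1; Atf4, Ddit3 and Ngly1) were chosen after their values were seen. The alternatives were other pseudocounts or a floor, other scalings, filters and probe sets, no block, a finite prior and leaving out each array. Promoter windows were RefSeq's on GRCm38.p6. The planned count of retention tails in the proteins was not made.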

Additional observations from a re-analysis of the deposited data

How the results depend on the processing

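The array pair entered the fit as a replicate block. Without the block, limma called 0 of the 40 genes, 0 of all genes and 0 genes of the related lists, and 12 of the 40 genes between the array pairs when group was left out of that fit. A moderated t-test with the block and a finite prior called 0, 0 and 0, and 17 between the pairs. The differences themselves are those of the blocked fit. Leaving out 1 array, without the block, gave 0 of the 40 genes each time, 0 to 11 of all genes, 0 to 2 of the related lists and 6 to 10 of the 40 between the pairs. The median of the 40 genes then ranged from 0.0019 to 0.089, and it was 0.019 with arrays centred on their medians, where the median of all genes was -0.016. The other pseudocounts, the floor, scalings, filters and probe set choices gave 4 to 6 of the 40 genes. Dnajb9, Herpud1, Eif2ak3 and Atf6 were called under each of these, while Edem2 missed the threshold with no filter (adjusted p = 0.050 with limma), Sec24d passed with arrays centred on their medians, and Xbp1 passed on another probe set. Alternatives for the related lists and the array pairs were added after the data were seen. Signal over background limits dim genes, whose changes are understated.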
